A study of Mus musculus with 2 samples.

Results

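The FGF homologous factors are 4 genes, Fgf11, Fgf12, Fgf13 and Fgf14, with NCBI gene IDs 14166 to 14169 in that order. They were chosen by gene symbol, taking every probe set whose only annotated symbol was one of them, with earlier results of these arrays known. The 4 are among 18194 genes named on the array, and 11 of its 45101 probe sets measure them, 2 for Fgf11, 3 for Fgf12, 2 for Fgf13 and 4 for Fgf14. No probe set annotated with several symbols included a member.

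FGF homologous factors share the fold of the fibroblast growth factors but lack a classical secretion signal and act mainly inside neurons. They bind the cytoplasmic tail of voltage-gated sodium channels, tune channel inactivation and gather with the channels at the axon initial segment, where action potentials start. Each gene is transcribed from alternative first exons, which give proteins with different amino termini. In the cerebellum Fgf14 is known for its role in the firing of granule and Purkinje neurons, and its mutation in humans causes a spinocerebellar ataxia.

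The RNA came from the granule cell layer, which is packed with small glutamatergic granule neurons, of intact male C57BL/6J mice 8 weeks old. The layer was cut by laser from fixed frozen sagittal sections of 12 μm, and about 1 ng of total RNA per sample was amplified and biotin-labelled in 2 cycles and hybridized to Affymetrix arrays. There was 1 group of 2 arrays, and both titles name animal 1, so the spread between them may be technical and does not stand for the spread between mice. Purkinje cells, which the series' design also names, were not analysed here. With 1 group, no test between groups was possible, and every value is a description of these arrays. A piece of layer holds several cell types, and fewer cells of a type and less RNA per cell cannot be told apart.

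Values are intensities in array units, on a linear scale. A probe set was called above background when it exceeded, on both arrays, the 95th percentile of 137 probe sets for 86 genes typical of other organs, such as liver, muscle and testis. This threshold was 12.3 on array 1 and 16.7 on array 2. For counts of genes, each gene took the value of its brightest probe set, and the thresholds, set the same way, were 15.3 and 18.9. Of the other-organ genes 4 exceeded these on both arrays. They were Inha (77.7 on array 1 and 37.9 on array 2), Tff1 (20.9 and 47.3), Ighm (21.7 and 32.7) and Upk2 (15.6 and 23.9). Intensities of different probe sets depend on their affinity and on their distance from the 3′ end of the transcript, so members are compared with the background and not ranked by abundance. The 3′ control probe set of Gapdh was 10.1 and 10.4 times as bright as its 5′ control on arrays 1 and 2, and that of Actb 29.0 and 37.9 times, ratios that also depend on the affinity of both probe sets.

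Of the 4 genes, Fgf12, Fgf13 and Fgf14 were above background on both arrays and Fgf11 was not. This is 75% of the family, against 43.2% of all 18194 named genes. A gene that takes its brightest probe set has more chances to pass when it has more probe sets. Each member has 2 to 4, while 9012 of the 18194 named genes have at least 2. The share of all named genes is not matched for this, here or beside the lists below. By probe set, 7 of 11 (63.6%) were above background, against 31.5% of the 45037 probe sets that are not controls. The 7 and the other 4 were well separated. The lowest single intensity among the 7 was 37.7, and the highest among the other 4 was 6.3, so no value of a member lay near the threshold. No probe set was above it on one array only.

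**Figure D1:**
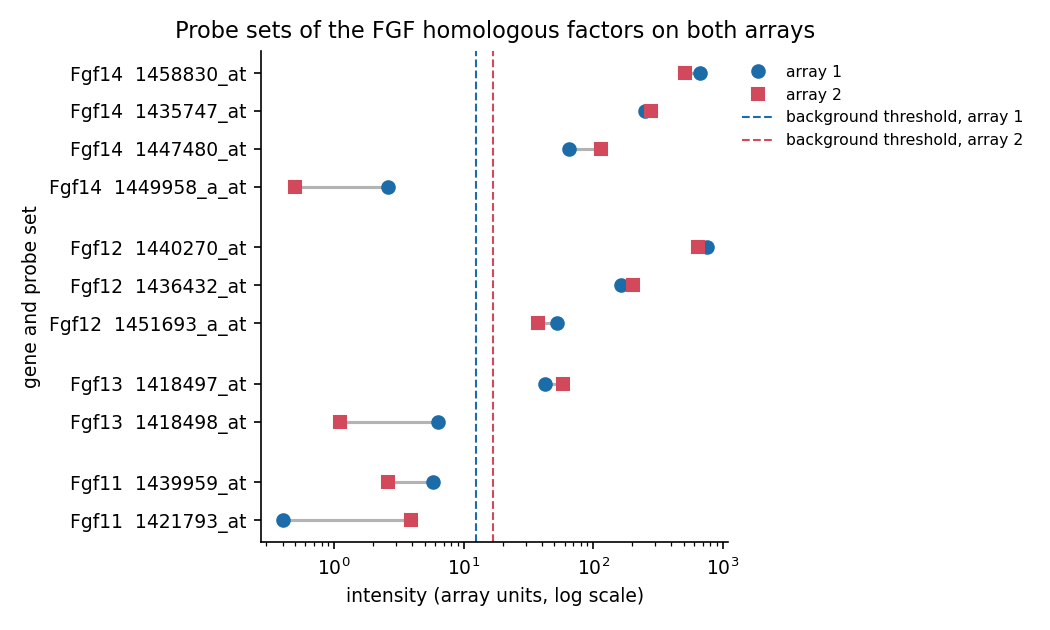
Intensity (array units, log axis) of each of the 11 probe sets of the FGF homologous factors on array 1 (circles) and array 2 (squares), with grey bars joining the 2 arrays and dashed lines at the probe set background thresholds of 12.3 and 16.7. The 3 probe sets of Fgf12, 3 of 4 for Fgf14 and 1 of 2 for Fgf13 lie to the right of both lines, and both probe sets of Fgf11 lie to the left.

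Fgf14, the family member tied to human ataxia, was above background with 3 of its 4 probe sets. Its brightest, 1458830_at, read 667 on array 1 and 512 on array 2 (589 ± 110, SD, n = 2 arrays). The next, 1435747_at, read 249 and 277 (263 ± 19.4). The third, 1447480_at, read 64.9 and 114.9 (89.9 ± 35.4). Both arrays exceeded the threshold at all 3 of these probe sets. The fourth, 1449958_a_at, read 2.6 and 0.5 and was below background on both. This was the only Fgf14 probe set designed from a curated RefSeq mRNA. Among the other members only the Fgf11 probe set 1421793_at was designed from such a record, and it too was below background. Whether the origin of a probe set bears on these signals was not tested. Among all probe sets with a single symbol, those designed from such records were above background about as often (35.3% of 5891) as those designed from other records (36.0% of 29067). The positions of the probes within the transcripts were not used here, so the probe sets could not be assigned to the 2 curated transcripts that RefSeq lists for Fgf14.

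Fgf12, another binding partner of sodium channels, was above background with all 3 of its probe sets. The brightest, 1440270_at, read 749 on array 1 and 644 on array 2 (697 ± 74.2). Probe set 1436432_at read 162 and 204 (183 ± 29.6). Probe set 1451693_a_at, which can match several transcripts of the gene, read 52.3 and 37.7 (45.0 ± 10.3). The other-organ gene Inha was brighter than this probe set on both arrays (77.7 and 37.9). Fgf12 was the only member without a probe set at background. Its 3 probe sets differed between the arrays by 1.16-fold to 1.39-fold.

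Fgf13, an X-linked member that also binds microtubules, was above background with 1 of its 2 probe sets. Probe set 1418497_at read 42.3 on array 1 and 58.0 on array 2 (50.2 ± 11.1), which is 3.43 and 3.46 times the thresholds of the 2 arrays. The other-organ gene Inha was brighter than this on array 1 (77.7) and dimmer on array 2 (37.9). Probe set 1418498_at read 6.3 and 1.1. RefSeq lists 4 curated transcripts of Fgf13 and 5 of Fgf12, and the single signal of Fgf13 does not say which of them were present.

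Fgf11 was the member whose probe sets were both at background. Probe set 1439959_at read 5.8 and 2.6 on arrays 1 and 2, and probe set 1421793_at read 0.4 and 3.9. These values lie under the thresholds on both arrays, so Fgf11 was not detectable with these probe sets. A low signal at 2 probe sets does not show that the transcript is absent.

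Probe sets of one gene thus disagreed for Fgf13 and Fgf14, where some were above and some below background. This is common on the array. Among 9012 named genes with at least 2 probe sets, 49.2% were mixed in this way, so 2 of 4 members is close to the background share.

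The arrays gave values within 2-fold of each other at every member probe set above background. The 7 probe sets differed between the arrays by 1.11-fold to 1.77-fold. Of them 0 of 7 differed by 2-fold or more, against 14.6% of the 14208 probe sets above background on both arrays. A set of 7 is too small to be set apart from that share. On the log2 scale, array 1 minus array 2, the largest difference was −0.82 for the Fgf14 probe set 1447480_at, and the smallest was −0.15 for 1435747_at. Array 1 was higher for 3 of the 7 and array 2 for 4. For Fgf12 and for Fgf14 the direction was not shared among probe sets of the gene. The brightest Fgf14 probe set was higher on array 1 by 0.38 and the other 2 were higher on array 2. The median difference was −0.15 for the 7, and −0.09 for all probe sets above background on both arrays. The 4 probe sets at background differed by 2.23-fold to 9.75-fold, in a range of intensities under 20 where only 41.6% of 30245 probe sets agreed within 2-fold. Between 100 and 1000, where the brightest probe sets of Fgf12 and Fgf14 lie, 93.1% of 4985 agreed within 2-fold, and between 20 and 100 this was 69.2% of 9004.

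**Figure D2:**
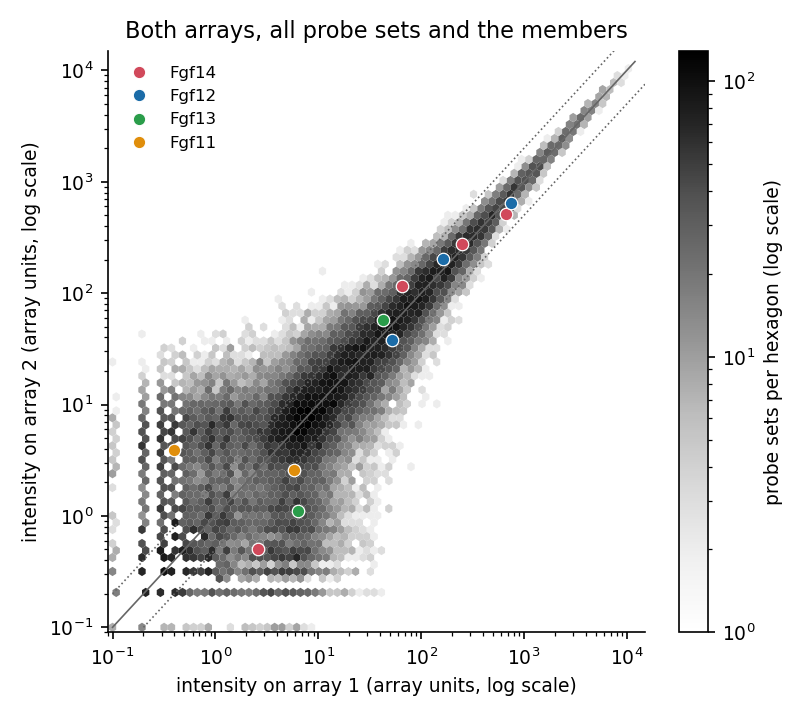
Intensity on array 1 (x axis) against array 2 (y axis), both in array units on log axes, for all 45037 probe sets that are not controls (grey hexagons, darker for more probe sets) and the 11 member probe sets (coloured by gene); the solid line marks equality and the dotted lines 2-fold differences. The 7 member probe sets above background lie between the dotted lines, and the 4 at background lie outside them.

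Voltage-gated sodium channels are the best known targets of this family. Of the 8 measured genes for pore-forming alpha subunits, Scn1a, Scn2a and Scn8a, the 3 main alpha subunits of the adult brain, were above background. Scn2a read 1326 on array 1 and 1696 on array 2 (1511 ± 262). Scn1a read 631 and 776 (704 ± 103). Scn8a, the main alpha subunit of mature axon initial segments, read 93.7 and 171 (132 ± 54.4). By brightest probe set all 3 were higher on array 2, by 1.23-fold to 1.82-fold. The other 2 Scn8a probe sets above background went the other way, with 47.3 and 38.1 for 1439889_at and 72.2 and 62.2 for 1457412_at on arrays 1 and 2. The other 5 were at background, namely the developmental subunit Scn3a (5.25 ± 1.48), the peripheral neuron subunits Scn9a (3.45 ± 3.04), Scn10a (5.65 ± 0.495) and Scn11a (6.25 ± 6.43), and Scn7a (7.65 ± 10.5), a subunit of a sodium-sensing channel. Of 3 measured genes for auxiliary beta subunits, Scn2b read 2245 and 2643 (2444 ± 282), and Scn3b (6.35 ± 1.91) and Scn4b (5.0 ± 0.283) were at background. In all, 3 of 8 alpha genes (37.5%) passed, which is near the share of all named genes, and the alpha list had median intensities of 5.95 and 13.0 on the 2 arrays against 15.0 and 15.8 for all named genes.

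All 10 measured genes listed for the scaffold of the axon initial segment were above background, against 43.2% of all named genes. The list also holds relatives of its parts and a channel subunit, so the count is not particular to the segment. The count was 7 with the threshold at the 99th percentile. Ank3 encodes ankyrin-G, the organiser that anchors sodium channels there, and it read 379 and 502 on arrays 1 and 2 (440 ± 86.6). Its relative Ank2 read 81.5 and 111 (96.2 ± 20.8). The spectrin genes were Sptan1 (5268 ± 233), Sptbn1 (1918 ± 187) and Sptbn4, which encodes the βIV-spectrin of the segment (68.9 ± 14.6). The adhesion genes were L1cam (194 ± 22.3), Nrcam (191 ± 42.7) and Nfasc (32.2 ± 6.08). Kcnq3, a subunit of the potassium channel that ankyrin-G also holds, read 50.9 and 24.2, and the microtubule organiser Trim46 read 16.8 and 34.5. These 2 genes were the ones on the list that differed by more than 2-fold between the arrays. The list had medians of 121 and 145.

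**Figure D3:**
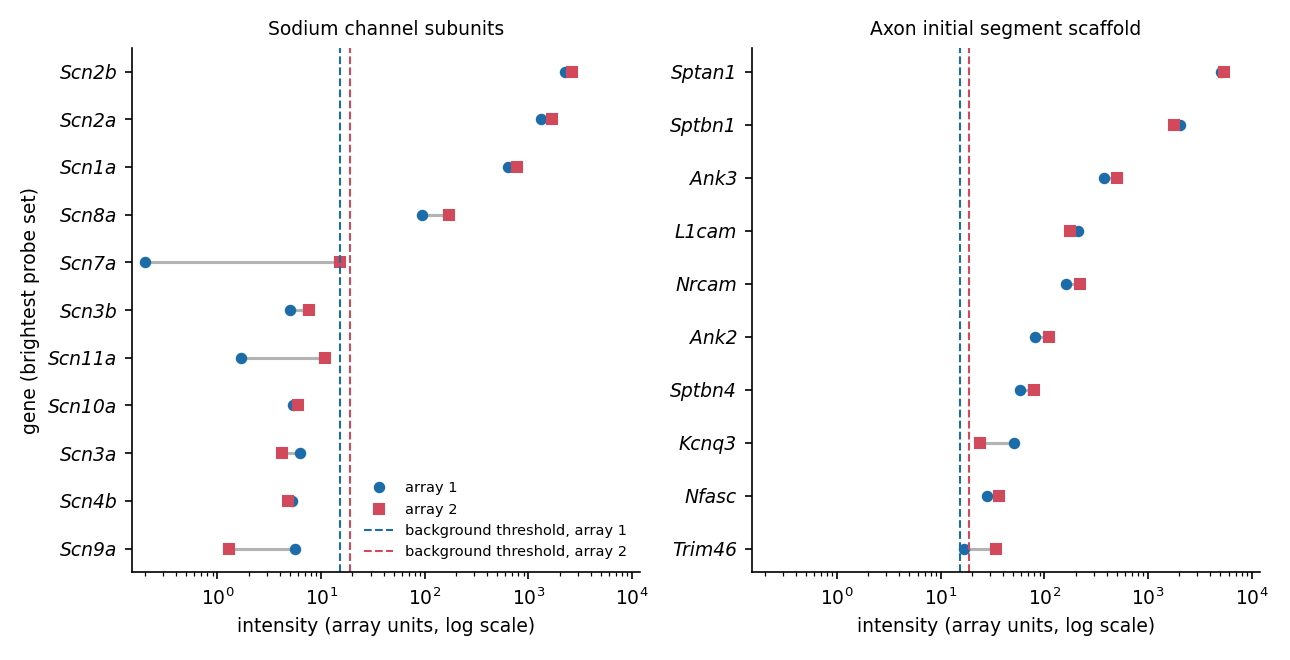
Intensity (array units, log axis) of the brightest probe set of each measured sodium channel subunit gene (left) and axon initial segment gene (right) on array 1 (circles) and array 2 (squares), with dashed lines at the gene background thresholds of 15.3 and 18.9. The 4 sodium channel genes Scn2b, Scn2a, Scn1a and Scn8a and all 10 genes of the scaffold list lie to the right of each array's own line, Trim46 closest to it. The vertical order follows brightness, which is not abundance.

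Among 11 measured genes for other reported partners and regulators, 10 (90.9%) were above background, against 43.2% of all named genes. Mapk8ip2 encodes islet brain-2, a scaffold of stress-activated kinases that binds FGF homologous factors, and it read 398 and 443 (421 ± 32.0). All 5 of its probe sets passed. Its relative Mapk8ip1 had 89.8 ± 19.2. The kinase genes Gsk3b (235 ± 45.7), Csnk2a2 (210 ± 97.5) and Jak2 (204 ± 89.4), whose products regulate the binding of Fgf14 to sodium channels, were present, as was Wee1 (44.1 ± 12.7). The calcium channel genes Cacna1a and Cacna1b, which encode presynaptic channels, had 158 ± 22.3 and 109 ± 14.2. Mapk13, a p38 kinase, was at background (1.85 ± 0.778).

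Most secreted FGFs, the relatives that signal through cell surface receptors, were at background. Of 18 measured ligand genes, 2 (11.1%) were above it, against 43.2% of all named genes. Fgf9 read 434 on array 1 and 516 on array 2 (475 ± 57.7), and both of its probe sets passed. Fgf1 read 95.4 and 80.2 (87.8 ± 10.7), with 2 of 3 probe sets above background. Fgf22, a ligand known as a presynaptic organiser in the cerebellum, read 16.6 and 6.3 and passed on array 1 only. Fgf4 (7.95 ± 0.778) was the next brightest, and Fgf8 (0.60 ± 0.141) and Fgf20 (0.750 ± 0.495) were the dimmest. The list had medians of 3.60 and 5.05.

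Of 10 genes for FGF receptors and co-receptors, 6 (60%) were above background, against 43.2% of all named genes. The receptor genes Fgfr1, Fgfr2 and Fgfr3 passed. The brightest probe set of Fgfr1 read 94.7 on array 1 and 49.3 on array 2, and its second probe set above background, 1436551_at, read 34.6 and 29.3. Fgfr2 read 31.1 and 113, a 3.64-fold difference. Fgfr3 read 85.1 and 24.7, a 3.45-fold difference in the other direction. Fgfr2 and Fgfr3 each had 1 probe set above background, so these differences have no second measurement, and the brightest probe sets of Fgfr1 and Fgfr2 are of a kind that can match several genes. The receptor-like gene Fgfrl1 (24.9 ± 3.89) and the adhesion genes Flrt3 (92.0 ± 5.02) and Flrt1 (26.9 ± 6.15) passed. Fgfr4 (12.4 ± 5.16), Flrt2 (16.9 ± 4.60) and the klotho co-receptor genes Kl (1.65 ± 0.354) and Klb (4.95 ± 1.63) did not. The Flrt2 probe set 1438702_at, with 13.7 and 20.2, exceeded the lower thresholds for probe sets but not the gene threshold on array 1. The count of 6 was 3 with a stricter threshold at the 99th percentile, and 3 when each gene took the mean of its probe sets. It was 4 without probe sets that can match several genes (_x_at and _s_at). For Fgfr2 and Fgfrl1 the only probe set above background was of the _s_at kind.

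**Figure D4:**
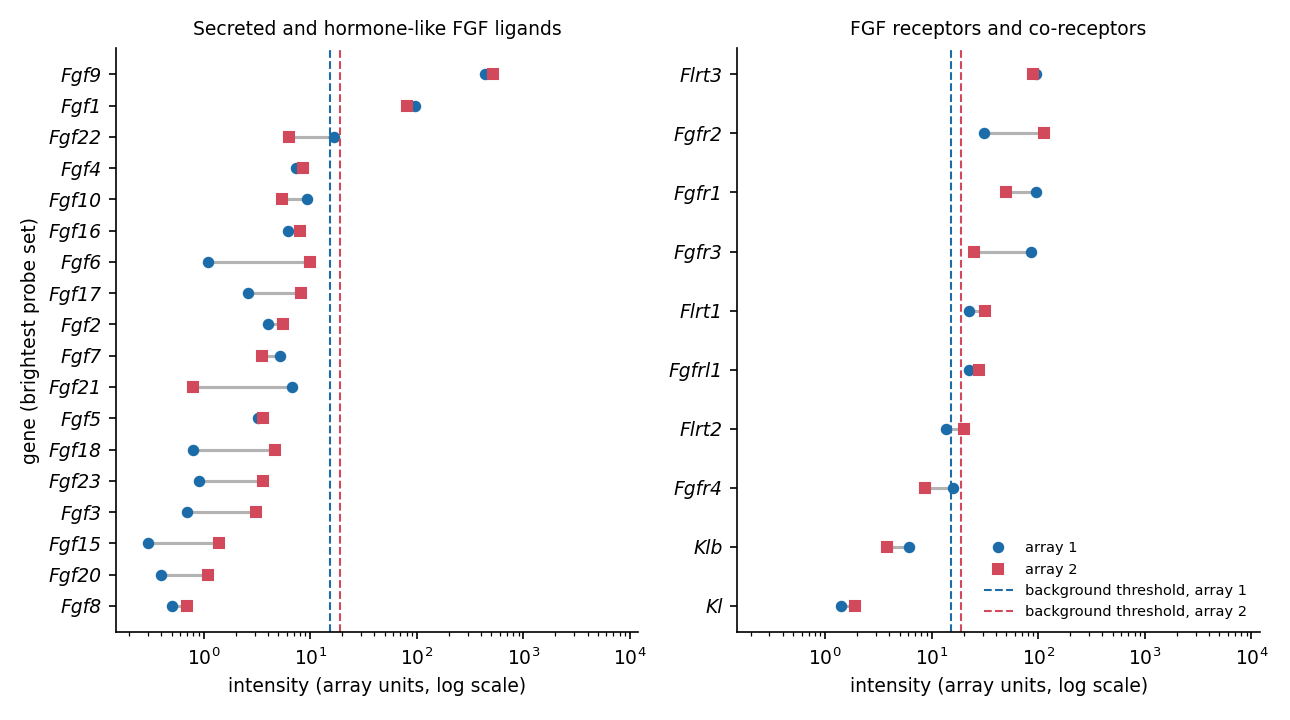
Intensity (array units, log axis) of the brightest probe set of each secreted or hormone-like FGF ligand gene (left) and each FGF receptor or co-receptor gene (right) on array 1 (circles) and array 2 (squares), with dashed lines at the gene background thresholds of 15.3 and 18.9. Fgf9 and Fgf1 are the 2 ligands above both lines, and Fgfr2 and Fgfr3 show the widest gaps between the arrays among the receptors above background.

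Of 13 measured genes for receptor signalling and its feedback, 11 (84.6%) were above background, against 43.2% of all named genes. Spred2 (406 ± 68.0), Spred1, at 398 on both arrays, and Spry2 (325 ± 15.8) encode inhibitors of the MAP kinase pathway downstream of growth factor receptors. The exchange factor gene Sos1 had 196 ± 76.2. Il17rd (6.25 ± 1.48), which encodes an FGF receptor inhibitor, and the transcription factor gene Etv4 (4.70 ± 4.38) were at background.

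**Figure D5:**
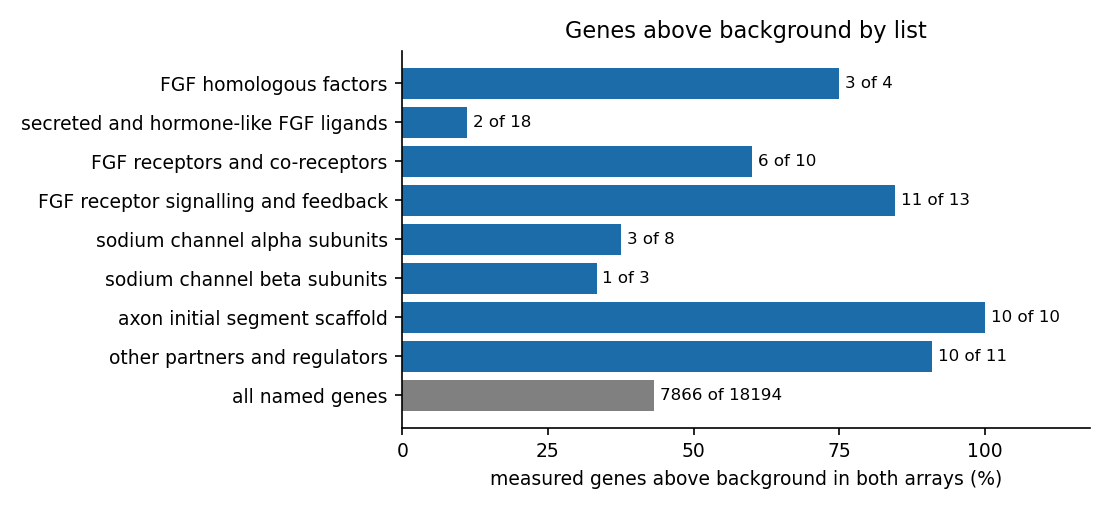
Share of measured genes above background on both arrays (%, bars from 0) for the FGF homologous factors and each related list, with the count beside each bar and all 18194 named genes in grey. The secreted and hormone-like ligands have the lowest share, 2 of 18, and the list for the axon initial segment scaffold has the highest, 10 of 10.

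The cells in the pieces were checked with marker lists. All 13 granule neuron markers were above background, led by Gabra6, a GABA receptor subunit, at 8189 and 8327, and their summed intensity was 32468 on array 1 and 33581 on array 2. The dimmest of them, Slc17a7, read 18.9 and 22.4, close to the gene thresholds of 15.3 and 18.9. Some markers of other cells were above background too, beside 43.2% of all named genes. It was 9 of 10 for Purkinje cells (summed 3490 and 4263). For unipolar brush cells it was 2 of 3 (1012 and 969), where Calb2 alone read 912.7 and 853.5 and Eomes 94.5 and 115.1. Most of this sum was thus Calb2, and whether its signal came from unipolar brush cells was not tested. The 4 of 9 (44.4%) for Golgi cells and other GABAergic interneurons (766 and 688) is near the share of all named genes. For astrocytes and Bergmann glia it was 8 of 10 (5294 and 5262) and for oligodendrocytes 6 of 8 (8007 and 7567). For endothelial cells and pericytes it was 4 of 7 (57.1%, 1022 and 1061). The 3 of 7 (42.9%) for microglia (408 and 588) is also near the share of all named genes. Such sums follow the brightest probe sets, for example that of Mbp (5722 and 5133), and do not measure the share of a cell type. No marker read 0 on either array. Those not above background on both arrays were Slc1a6 of Purkinje cells, Slc6a5, Grm2, Npy, Sst and Kit of interneurons, Lmx1a of unipolar brush cells, and Aldh1l1 and Gdf10 of astrocytes and Bergmann glia. The others were Mag and Olig2 of oligodendrocytes, Cx3cr1, C1qa, Aif1 and Itgam of microglia, and Flt1, Cdh5 and Pecam1 of endothelial cells. Purkinje cells also express FGF homologous factors. The part of each cell type in the signals of the members was not tested.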

How the data were processed

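The authors deposited linear signal intensities, 1 for each probe set of each array. Per the submitters' processing notes they were made with GCOS, the Affymetrix software. Not given in the sources used here are its version, its settings and its scaling. No further scaling was applied. The 2 zeros of array 1 and the 1 zero of array 2 were set to 0.1 before log2.

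Gene names came from the platform annotation, which gave 1 symbol to 34958 probe sets and several to 932, and did not list 9211. Of the first, 34754 matched the RefSeq gene table (GRCm38.p6) by gene ID. Genome coordinates, probe sequences and protein sequences were not used here. Listed genes with no probe set of a single symbol were not analysed here.

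The members and lists were chosen with earlier results of these data known. All members, channel subunits, receptors and scaffold genes are described, and of other lists the 4 brightest and 2 dimmest. Mapk8ip1, Cacna1a, Cacna1b and the marker genes were named after their values were seen. Mean, SD and log2 difference were computed in Python 3.11.15 (pandas 2.3.3), with calls checked on simulated arrays. The simulated arrays held less noise than these arrays. The check thus covers the code and does not give an error rate for the calls made here. Alternatives were 90th and 99th percentile thresholds, olfactory receptor background, quantile or median scaling, log2(value + 16), omission of _x_at and _s_at probe sets, the mean of all probe sets, and each array alone.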

Additional observations from a re-analysis of the deposited data

How the results depend on the processing

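The counts of 3 member genes and 7 member probe sets above background were the same under every alternative run for them. So were the counts of 3 sodium channel alpha genes, 1 beta gene and 10 other partners. Some alternatives could hardly change a member call. Quantile and median scaling keep the order of values within an array, and the threshold moved with them. No member probe set is of the _x_at or _s_at kind, so omission of that kind could act only through the thresholds. Since no member was above background on 1 array only, either array alone had to give the same member counts. The count of all named genes ranged from 6039 to 9545, that of secreted ligands from 2 to 3, of receptor signalling genes from 8 to 11 and of scaffold genes from 7 to 10. The receptor and co-receptor count of 6 fell to 3 with the 99th percentile, and also to 3 when genes were averaged over their probe sets. It was 4 without _x_at and _s_at probe sets, and ranged from 3 to 7 over all alternatives. The cause was not tested. No difference between the arrays changed direction for a member above background under quantile or median scaling or log2(value + 16), and 0 of 7 reached 2-fold under any of these. The 4 differences of member probe sets at background shrank to between −0.28 and 0.38 with log2(value + 16), which damps low values by construction. Low signal limits what can be said of Fgf11, and the number of arrays limits all precision.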

Other observations

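Probe sets of the sodium channel genes disagreed as those of the members did. Scn8a had 3 of 5 probe sets above background, with 1423515_at at 93.7 and 171 on arrays 1 and 2 and 1442208_at at 1.5 and 1.1. Scn2a had 2 of 4, namely 1435933_at at 1326 and 1696 and 1427280_at at 441 and 583. Its probe set 1427281_at, at 33.1 and 9.2, passed on array 1 only, and 1445259_at, at 6.0 and 17.8, on array 2 only. Over the 24 probe sets of the 8 alpha genes, 7 (29.2%) were above background, close to the share over the array. Ank3 passed with 3 of 6 probe sets and Sptbn1 with 4 of 6.

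The secreted ligand Fgf9 was measured above background by both of its probe sets, which read 434 and 516 (1438718_at) and 27.8 and 32.6 (1420795_at) on arrays 1 and 2.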
